A study of Mus musculus with 28 samples.

Results

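The 30 genes described here are expressed by oligodendrocytes, the glial cells that wrap axons of the central nervous system in myelin, and were set out by role as 12 membrane and structural proteins of myelin, 4 proteins of gap junctions, axon contacts and nodes, 7 lipid and metabolic enzymes, and 7 lineage factors and stage markers. They were chosen by symbol from the 53801 genes of the count table, and all 30 were found there, were detected, and passed the low-count filter that left 11123 genes to test. RNA came from one hemibrain of each of 28 C57Bl/6J mice, cerebellum included and olfactory bulb removed, so white matter and grey matter were measured together. The 4 groups of 7 mice were DKO mice given the vector (DKO AAV), DKO mice given saline (DKO saline), wildtype mice given the vector (WT AAV) and wildtype mice given saline (WT saline). DKO mice carry knockouts of both Grn, which codes for the lysosomal protein progranulin, and Tmem106b, which codes for a lysosomal membrane protein. The removed parts of the 2 genes are not given, and an effect of one knockout cannot be told apart from an effect of the other. The vector, AAV(L):bPGRN, makes the liver secrete human progranulin joined to the 8D3 antibody fragment, which binds the mouse transferrin receptor. It was given into the tail vein at 6 weeks of age at 1.3e+13 vector genomes per kg, and brains were taken 9 to 10 weeks later, at 15 to 16 weeks of age. DKO groups had 3 males and 4 females each, and WT groups had 4 males and 3 females each.

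Myelin is built from stacked oligodendrocyte membrane that is rich in galactosylceramide and sulfatide. Small basic proteins hold its cytoplasmic faces together, adhesion proteins line the side next to the axon, and tight and gap junctions seal and connect its layers. Progenitors become myelinating cells under transcription factors such as Olig2, Sox10 and Myrf. TMEM106B has been linked to myelin through a human leukodystrophy mutation and through myelin changes in mice without the gene.

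Total counts ran from 1164637 to 2389815 per library. Tmem106b had 11 to 27 counts in DKO AAV mice, 14 to 30 in DKO saline mice, 120 to 190 in WT AAV mice and 81 to 200 in WT saline mice, so DKO and WT libraries did not overlap. Grn tags did not separate the genotypes, with 170 to 270 counts in DKO AAV mice, 170 to 450 in DKO saline mice, 170 to 320 in WT AAV mice and 120 to 390 in WT saline mice, and a tag near the 3' end outside a deleted part does not check that deletion. DKO saline replicate 2 stood apart from its group before any comparison. It had the highest level of the group for 27 of the 30 myelin genes, a summed level of 13028 CPM (tag counts scaled to a common library size with TMM factors) against 6945 to 8761 CPM in the other 6 mice, and a mean log2 level of striatal neuron genes 1.53 below and of excitatory neuron genes 1.21 below the WT saline mean. Genes of thalamus, midbrain and hindbrain were 0.64 above it. The part of regional content in its myelin gene levels was not tested. Counts of calls against or for DKO saline mice are therefore given with and without it. WT saline replicate 6 and WT AAV replicate 7 had low cerebellar gene levels, and 1 alternative fit leaves out all 3 libraries. That fit does not separate their part from that of DKO saline replicate 2. Fits without each single mouse were run too.

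Promoters of 22 of the 30 genes were in the RefSeq promoter table for GRCm38.p6, in 32 windows of 250 bases before to 50 bases after a start site. A set of 4 letter strings was searched on both strands, ACAAAG and ACAATG, which resemble sites bound by SOX proteins, and CTGGCAC and CTGGTAC, which resemble sites bound by Myrf. Of all 32851 windows in the table, 18.7% held ACAAAG, 12.6% ACAATG, 5.01% CTGGCAC and 2.24% CTGGTAC. Among the 32 windows of the myelin genes, 9 held ACAAAG, 7 ACAATG, 6 CTGGCAC and 1 CTGGTAC. Windows of the same gene can overlap and share a match. By gene, the strings were found in 7, 6, 5 and 1 of the 22 genes, in the same order. Shown 5' to 3' are windows of Mobp and Plekhb1, the genes with the firmest differences between genotypes below. Windows of Mag and Cnp, which code for other proteins of myelin, are shown too, and neither gene was called in the reported fit. Matches are in capitals, written CTTTGT where ACAAAG lies on the other strand. The windows are Mobp at chr9:120149492-120149791 on the plus strand and the second of a pair of Plekhb1 windows at chr7:100656916-100657215 on the minus strand. The others are Mag at chr7:30914814-30915113 on the minus strand and Cnp at chr11:100574689-100574988 on the plus strand.
Mobp: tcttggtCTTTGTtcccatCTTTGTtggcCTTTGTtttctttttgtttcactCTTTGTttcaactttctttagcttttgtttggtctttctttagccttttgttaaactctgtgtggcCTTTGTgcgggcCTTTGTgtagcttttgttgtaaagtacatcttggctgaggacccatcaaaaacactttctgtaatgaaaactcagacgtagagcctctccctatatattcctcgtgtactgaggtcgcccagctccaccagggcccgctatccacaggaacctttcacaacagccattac
Plekhb1: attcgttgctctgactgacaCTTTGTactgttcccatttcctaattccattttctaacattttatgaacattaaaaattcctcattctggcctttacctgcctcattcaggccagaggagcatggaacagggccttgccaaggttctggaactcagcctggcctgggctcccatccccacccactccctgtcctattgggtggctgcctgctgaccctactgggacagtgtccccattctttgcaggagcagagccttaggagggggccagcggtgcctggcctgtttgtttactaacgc
Mag: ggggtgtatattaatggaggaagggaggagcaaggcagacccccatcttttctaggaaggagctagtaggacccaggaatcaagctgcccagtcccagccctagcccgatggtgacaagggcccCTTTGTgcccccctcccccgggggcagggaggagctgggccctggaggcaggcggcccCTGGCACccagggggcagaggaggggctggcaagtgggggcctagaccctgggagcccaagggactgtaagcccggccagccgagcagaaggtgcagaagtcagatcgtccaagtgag
Cnp: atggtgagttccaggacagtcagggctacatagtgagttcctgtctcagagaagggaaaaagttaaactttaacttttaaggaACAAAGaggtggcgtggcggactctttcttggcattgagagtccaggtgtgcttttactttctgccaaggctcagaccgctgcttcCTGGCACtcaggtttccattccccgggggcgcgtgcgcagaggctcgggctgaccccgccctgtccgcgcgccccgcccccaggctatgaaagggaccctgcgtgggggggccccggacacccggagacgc
The Mobp window held ACAAAG 6 times, all on the minus strand, and was the only 1 of the 32851 windows with as many. The Plekhb1 window held it 1 time, and the other Plekhb1 window, at chr7:100662345-100662644, held none of the strings. The Mag and Cnp windows shown each had 1 ACAAAG and 1 CTGGCAC. Another Mag window, at chr7:30914272-30914571, held none of the strings. No match overlapped another in these 4 windows, and a match describes the letters only, with no binding measured here.

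In WT saline mice the levels differed widely between genes. Since 1 tag is counted per molecule, levels of different genes can be set side by side without correcting for length. Mbp, which codes for myelin basic protein, stood first at 5532 ± 1494 CPM (SD, n = 7), and its lowest mouse lay above the highest mouse of the next gene. Qdpr, which codes for dihydropteridine reductase of tetrahydrobiopterin metabolism and is made in other brain cells too, had 1053 ± 64.5 CPM, and Mobp, which codes for a small basic protein of compact myelin, had 1025 ± 155 CPM. Bcas1, a marker of early myelinating oligodendrocytes, had 730.0 ± 103 CPM, and Plekhb1, which codes for a membrane-associated pleckstrin homology protein, had 717 ± 123 CPM. These 4 genes overlapped their neighbours in the order, and Plekhb1 in turn lay wholly above Car2, which codes for carbonic anhydrase, at 379 ± 50.2 CPM. At the low end, Enpp6, a marker of newly formed oligodendrocytes, had 5.06 ± 1.99 CPM and Tmem125, a membrane protein gene enriched in oligodendrocytes, had 5.02 ± 1.93 CPM. Spread between mice was relatively small for Qdpr (coefficient of variation 6.12%), Sox10 (7.07%) and Cnp (7.09%), and relatively large for Gjb1 (42.3%). Sox10 averaged 28.9 CPM and Gjb1 12.9 CPM. The part of counting noise in these spreads, relatively larger at low levels, was not tested.

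Mobp was lower in DKO mice than in WT mice under both treatments. Its level was 419.5 CPM in the lowest, 462 in the median and 802 in the highest DKO AAV mouse, and 358, 596 and 865 CPM in DKO saline mice. In WT AAV mice it was 755, 949 and 1056 CPM, and in WT saline mice 807, 1055 and 1234 CPM. All 7 DKO AAV mice lay below every WT saline mouse, 6 of 7 lay below every WT AAV mouse, and 6 of 7 DKO saline mice lay below every WT saline mouse, the exception being replicate 2. The log2 fold change was -0.81 ± 0.14 (SE) for DKO saline over WT saline (adjusted p = 0.000392, edgeR quasi-likelihood test with Benjamini-Hochberg adjustment over all genes tested, as for all adjusted p-values here unless another tool is named). For DKO AAV over WT AAV, a comparison that shares no mouse with the first, it was -0.85 ± 0.14 (adjusted p = 0.000355), and for DKO AAV over WT saline it was -1.01 ± 0.14 (adjusted p = 3.61e-05). Without DKO saline replicate 2, the saline comparison gave -0.96 ± 0.14 (adjusted p = 2.72e-05). In hemibrain RNA, fewer oligodendrocytes and less RNA per oligodendrocyte cannot be told apart.

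No change of Mobp with the vector was called. DKO AAV over DKO saline gave a log2 fold change of -0.21 ± 0.14 (adjusted p = 0.441) and WT AAV over WT saline gave -0.16 ± 0.14 (adjusted p = 1), and the vector effect in DKO minus that in WT was -0.05 ± 0.20 (adjusted p = 0.952). Within batches, Mobp was lower in all 4 for DKO saline against WT saline, with differences of -1.55 to -0.46 on the log2 scale, and in all 4 for DKO AAV against WT AAV, with differences of -1.07 to -0.63. These within-batch values rest on 1 to 4 mice per group. The gene lies on chromosome 9 of GRCm38 (120149707 to 120181484, plus strand) and has 7 annotated transcripts with 5 distinct 3' ends, whose tags are summed, so a shift between transcript forms would not be seen. A noncoding transcript on the same strand that shares its 3' end, Gm38642, was listed at 0 in all libraries.

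**Figure D1:**
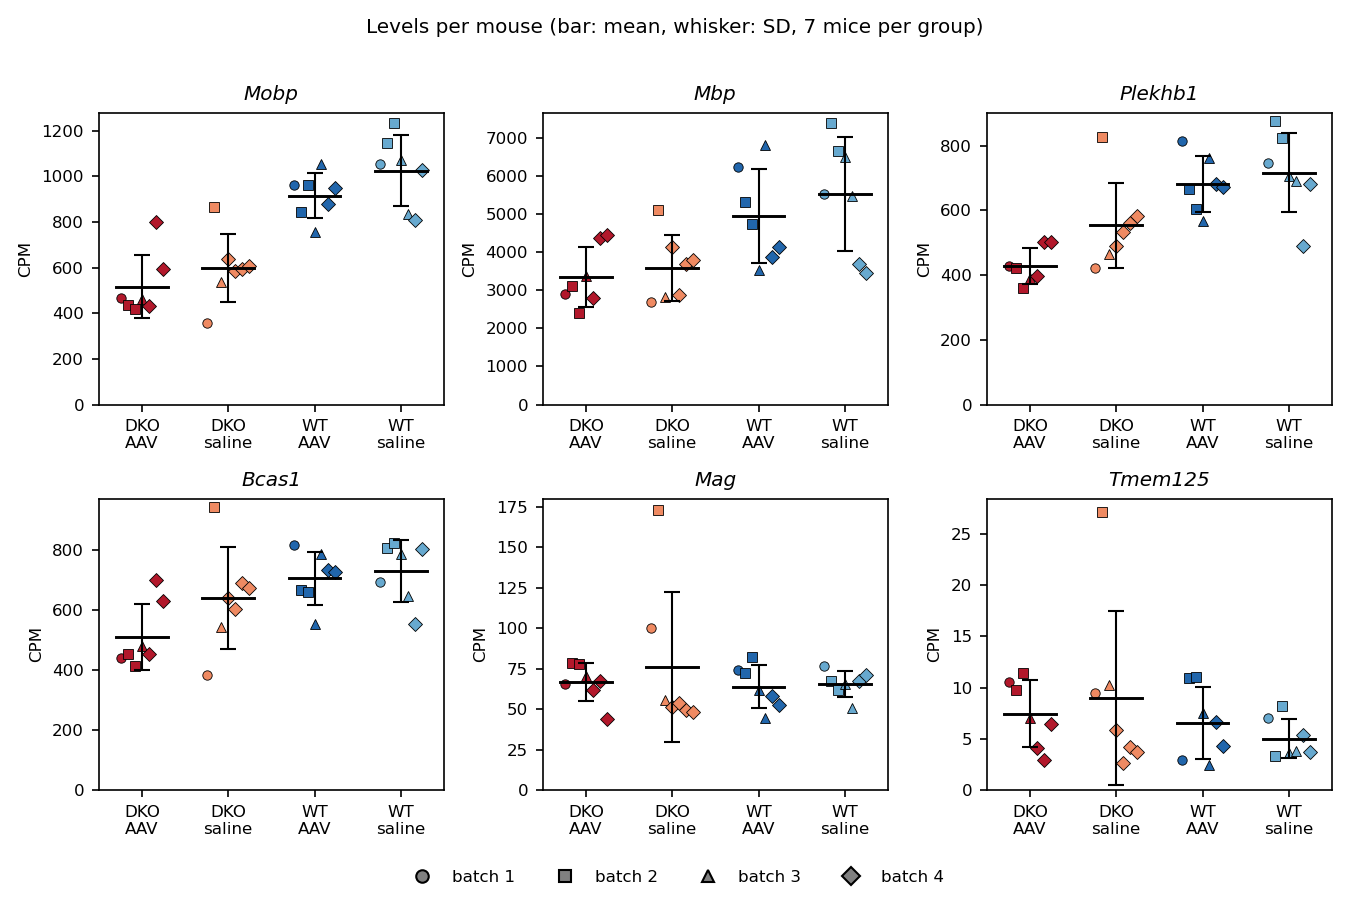
Level in CPM (vertical axes, from 0) of 6 genes in each of the 28 mice, in the 4 groups, with a bar at the mean, a whisker of 1 SD (n = 7) and marker shape for the batch. Mobp lay at 358 to 865 CPM in DKO mice and 755 to 1234 CPM in WT mice, and the highest DKO saline point in all 6 panels is replicate 2.

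Plekhb1 was lower in DKO AAV mice than in either WT group. Its lowest, median and highest levels were 360, 422 and 503 CPM in DKO AAV mice, 422, 532 and 825 CPM in DKO saline mice, 567, 673 and 815 CPM in WT AAV mice, and 491, 706 and 875 CPM in WT saline mice. Every DKO AAV mouse lay below every WT AAV mouse, while DKO saline mice overlapped both WT groups. The log2 fold change was -0.68 ± 0.12 for DKO AAV over WT AAV (adjusted p = 0.000873) and -0.74 ± 0.12 for DKO AAV over WT saline (adjusted p = 0.000348). For DKO saline over WT saline it was -0.36 ± 0.12 (adjusted p = 0.0742), and -0.52 ± 0.12 (adjusted p = 0.00776) without replicate 2. DKO AAV over DKO saline gave -0.38 ± 0.12 (adjusted p = 0.0763). Plekhb1 was called lower there with no low-count filter, with a term for RNA concentration, without batch 1 and without DKO saline replicate 1. No other alternative called it there. Against WT AAV it was lower in DKO AAV mice in all 4 batches, with differences of -0.93 to -0.54. Plekhb1 lies on chromosome 7 (100642892 to 100662414, minus strand). It has 12 annotated transcripts with 7 distinct 3' ends, so a shift between its transcript forms would not be seen either. The same limit holds below for Bcas1 (9 transcripts, 2 distinct 3' ends) and Mbp (16 transcripts, 4 distinct 3' ends).

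Bcas1 had 414 CPM in the lowest, 454 in the median and 700.0 in the highest DKO AAV mouse, against 554, 725 and 815 CPM in WT AAV mice and 552, 785 and 823 CPM in WT saline mice. DKO saline mice ranged from 385 to 943 CPM with a median of 640 CPM. Only 2 DKO AAV mice, both of batch 4, overlapped the WT mice, and 5 of 7 DKO AAV mice lay below every mouse of either WT group. The fold change was called for DKO AAV over WT AAV (log2 -0.50 ± 0.14, adjusted p = 0.0257) and for DKO AAV over WT saline (-0.54 ± 0.14, adjusted p = 0.0148), and not for DKO saline over WT saline (-0.23 ± 0.14, adjusted p = 0.351). Without the 3 libraries of low striatal or cerebellar level the saline comparison was called as well, at -0.54 ± 0.12 (adjusted p = 0.00499). With the log2 RNA concentration of the samples as a term, the first became -0.42 ± 0.15 (adjusted p = 0.113) and the second -0.48 ± 0.15 (adjusted p = 0.0613). That concentration was 10200 to 21100 pg per ul in DKO AAV and 10650 to 43400 in DKO saline mice. In WT AAV mice it was 6600 to 13050, and in WT saline mice 6350 to 17100. It thus tended to be higher in DKO mice, and this term cannot be fully told apart from genotype. The call against WT AAV also ended with library totals as scaling, with no sex and batch terms, without any of batches 1, 2, 3 and 4, and without DKO AAV replicate 2, 3, 4 or 5 or WT AAV replicate 1. Over these 12 alternatives its log2 values were -0.60 to -0.39 and its adjusted p-values 0.0521 to 0.113. Bcas1 lies on chromosome 2 (170346991 to 170427845, minus strand).

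In the reported fit Mbp was called lower in 1 comparison, DKO AAV against WT saline, and its difference was near 0 in 1 of the 4 batches. Levels were 2397, 3105 and 4444 CPM (lowest, median, highest) in DKO AAV mice, 2687, 3692 and 5110 CPM in DKO saline mice, 3525, 4739 and 6820 CPM in WT AAV mice, and 3455, 5538 and 7405 CPM in WT saline mice. All DKO mice lay below the median of the WT group given the same treatment, and the ranges overlapped. The log2 fold change was -0.67 ± 0.18 for DKO AAV over WT saline (adjusted p = 0.0215), -0.56 ± 0.18 for DKO saline over WT saline (adjusted p = 0.0533; -0.67 ± 0.19 and adjusted p = 0.0355 without replicate 2) and -0.53 ± 0.18 for DKO AAV over WT AAV (adjusted p = 0.0673). Within batches 1, 2 and 3, DKO saline minus WT saline was -1.04, -0.46 and -1.07 on the log2 scale. Each of these rests on 1 DKO saline mouse, against 1, 2 and 2 WT saline mice. In batch 4 the difference was 0.01, with 4 DKO and 2 WT mice. DKO AAV minus WT saline in batch 4 was 0.08. The batch 4 mice of WT saline were the lowest of that group. Age also differed there, at 16 weeks for DKO saline mice and 15.5 weeks for the other groups. A term for RNA concentration or leaving out batch 1, 2 or 3 ended the call for DKO AAV over WT saline. So did leaving out any of DKO AAV replicates 1 to 4 or WT saline replicates 1 and 2. The log2 values ran from -1.08 to -0.41 over all alternatives. Mbp was called lower for DKO saline over WT saline with no low-count filter or no sex and batch terms. It was also called there without batch 4, the 3 libraries, DKO saline replicate 2 or 4, or WT saline replicate 6 or 7. For DKO AAV over WT AAV it was called with no low-count filter and with only the compared groups. It was called there too without batch 4, the 3 libraries, WT AAV replicate 4, or DKO AAV replicate 6 or 7.

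The other membrane and structural genes were not called lower in any comparison in the reported fit. Tmem125 was called higher in DKO saline mice, at 2.62, 5.82 and 27.1 CPM (lowest, median, highest) against 3.37, 3.80 and 8.23 CPM in WT saline mice, with a log2 fold change of 1.16 ± 0.31 (adjusted p = 0.0195). The 27.1 CPM was replicate 2 and the next mouse had 10.2 CPM. Without that mouse the value was 0.67 ± 0.34 (adjusted p = 0.311), and DESeq2 did not call the gene. Mal, which codes for a proteolipid of membrane sorting, had 41.0, 68.0 and 114 CPM in DKO saline mice and 76.6, 105 and 122 CPM in WT saline mice, with 5 of 7 DKO mice below every WT mouse. Its log2 fold change was -0.46 ± 0.16 (adjusted p = 0.0803), and -0.61 ± 0.16 (adjusted p = 0.0248) without replicate 2. It was also called with no low-count filter, without the 3 libraries and without DKO saline replicate 4.

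Mog, which codes for a glycoprotein of the outermost myelin layer, gave log2 values of -0.17 ± 0.17 for DKO saline over WT saline and 0.05 ± 0.17 for DKO AAV over WT AAV. Mag, which codes for an adhesion protein next to the axon, gave 0.27 ± 0.17 and 0.11 ± 0.17 in the same comparisons, and the first was -0.05 ± 0.13 without replicate 2. For Cnp, which codes for a phosphodiesterase of noncompact myelin, the values were 0.16 ± 0.15 and -0.10 ± 0.15, and an antisense gene, Dnajc7, covers its 3' end. Cldn11, the tight junction claudin of myelin, gave 0.05 ± 0.15 and -0.08 ± 0.15. Opalin, Ermn and Tspan2, which code for an oligodendrocyte glycoprotein, a cytoskeletal protein and a tetraspanin, lay between -0.14 and 0.04 in the first comparison and between -0.08 and -0.02 in the second. Without replicate 2 the first comparison gave -0.41 ± 0.16 for Mog (adjusted p = 0.161), -0.10 ± 0.12 for Cnp (adjusted p = 0.716), -0.19 ± 0.12 for Cldn11 (adjusted p = 0.442) and -0.27 to -0.08 for Opalin, Ermn and Tspan2. None of these 7 genes was called in the reported fit, Mag was called higher for DKO saline over WT saline without batch 4, and their groups overlapped in every comparison.

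Among the proteins of junctions and nodes, none of 4 was called in any comparison in the reported fit of all 28 mice. Nfasc codes for neurofascin, whose glial form holds the paranodal loops to the axon and whose neuronal form lies at the node. It had 78.9, 97.3 and 102 CPM (lowest, median, highest) in DKO AAV mice and 56.0, 70.8 and 82.4 CPM in WT AAV mice, a log2 difference of 0.42 ± 0.14 (adjusted p = 0.0639). The gene was called higher there in 5 alternatives: with library totals as scaling, with no low-count filter, with only the compared groups, with a 6-gene myelin score (defined below) as a term, and without the 3 libraries of low striatal or cerebellar level. In those its log2 values were 0.41 to 0.53 and its adjusted p-values 0.00168 to 0.0191. For DKO AAV over WT saline it was called with the 6-gene score as a term (0.39 ± 0.11, adjusted p = 0.0257). In the saline groups the difference was 0.19 ± 0.14 (adjusted p = 0.475), and -0.07 ± 0.11 (adjusted p = 0.808) without DKO saline replicate 2. Gjb1 and Gjc3, which code for connexins, gave 0.53 ± 0.24 (adjusted p = 0.182) and -0.19 ± 0.18 (adjusted p = 0.593) for DKO saline over WT saline, and Gjb1 gave 0.15 ± 0.24 without replicate 2 but was called higher without batch 4 or without WT saline replicate 7. Hapln2, which codes for a hyaluronan link protein at nodes, gave 0.09 ± 0.32 from levels of 4.07 to 24.4 CPM in DKO saline mice and 6.06 to 11.4 CPM in WT saline mice, where the highest value was again replicate 2, and -0.59 ± 0.31 (adjusted p = 0.332) without it. The median of the 4 genes in that comparison was 0.14, and -0.21 without replicate 2.

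None of the 7 enzymes was called in any comparison in the reported fit. Fa2h, which codes for the hydroxylase of the fatty acids in myelin galactolipids, had 9.23, 10.5 and 29.9 CPM (lowest, median, highest) in DKO saline mice and 14.9, 27.2 and 31.0 CPM in WT saline mice. Its log2 fold change there was -0.51 ± 0.17 (adjusted p = 0.0713), and -0.71 ± 0.19 (adjusted p = 0.0221) without replicate 2. It was 0.44 ± 0.17 for DKO AAV over DKO saline (adjusted p = 0.128) and -0.08 ± 0.16 for DKO AAV over WT AAV (adjusted p = 0.825). Ugt8a, which codes for the enzyme that makes galactosylceramide, gave -0.18 ± 0.18 and 0.01 ± 0.18 for DKO over WT under saline and under vector, and Gal3st1, which makes sulfatide from it, gave -0.15 ± 0.23 and -0.30 ± 0.23. Aspa, which codes for the enzyme that splits N-acetylaspartate, gave 0.35 ± 0.17 and 0.09 ± 0.18, Car2 gave -0.13 ± 0.09 in both, and Qdpr gave 0.09 ± 0.12 and -0.14 ± 0.12. Without replicate 2 the saline comparison gave -0.45 ± 0.17 for Ugt8a (adjusted p = 0.157), -0.38 ± 0.24 for Gal3st1 (adjusted p = 0.465), 0.12 ± 0.17 for Aspa (adjusted p = 0.78) and -0.14 ± 0.08 for Qdpr (adjusted p = 0.394). In other alternatives Fa2h was called lower there with limma, without the 3 libraries and without WT saline replicate 4, and Aspa higher without batch 4. For DKO AAV over DKO saline Qdpr was called lower with no low-count filter, with RIN as a term and with the 6-gene score as a term, and Fa2h higher with the last of these. For DKO AAV over WT saline Qdpr was called lower without the 3 libraries.

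Enpp2 codes for autotaxin, which makes lysophosphatidic acid and is also abundant in the choroid plexus. It gave log2 values of -0.08 ± 0.18 for DKO saline over WT saline and -0.02 ± 0.17 for DKO AAV over WT AAV. WT AAV replicate 1 had 593 CPM of Enpp2 and 2891 CPM of Ttr, the transthyretin gene of the choroid plexus, against at most 329 CPM of Enpp2 in the other mice of that group. The summed level of 12 choroid plexus genes ran from 445 to 1300 CPM in DKO AAV mice, 624 to 1393 CPM in DKO saline mice, 529 to 3094 CPM in WT AAV mice and 531 to 1309 CPM in WT saline mice, with only Igf2 at 0 in all. The part of this tissue in the Enpp2 values was not tested.

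Of the lineage factors and stage markers, Bcas1 alone was called in the reported fit, and Nkx6-2 was called in alternatives, higher for DKO saline over WT saline without batch 4 and lower for DKO AAV over DKO saline without batch 4 and with no low-count filter. Olig1, a transcription factor of the whole lineage, had 165 to 185 CPM in DKO AAV mice, 126 to 224 CPM in DKO saline mice, 161 to 227 CPM in WT AAV mice and 152 to 237 CPM in WT saline mice. Its log2 fold change was -0.22 ± 0.10 for DKO saline over WT saline (adjusted p = 0.197) and -0.15 ± 0.10 for DKO AAV over WT AAV (adjusted p = 0.394). In the same comparisons Olig2 gave -0.28 ± 0.16 and 0.06 ± 0.16, Sox10 0.19 ± 0.19 and -0.35 ± 0.19, and Myrf, the factor of myelin gene transcription, -0.13 ± 0.25 and 0.29 ± 0.25. Nkx6-2, a homeobox factor of late oligodendrocytes, gave 0.25 ± 0.20 and -0.04 ± 0.21, with a 3' end covered by the antisense gene Inpp5a. Enpp6 gave 0.56 ± 0.28 (adjusted p = 0.261; 0.14 ± 0.31 without replicate 2) and 0.18 ± 0.28 (adjusted p = 0.777). Without replicate 2 the saline comparison gave -0.21 ± 0.16 for Sox10 (adjusted p = 0.542) and -0.08 ± 0.19 for Nkx6-2 (adjusted p = 0.882), and the median of the 7 genes was -0.27 against -0.13 with that mouse.

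**Figure D2:**
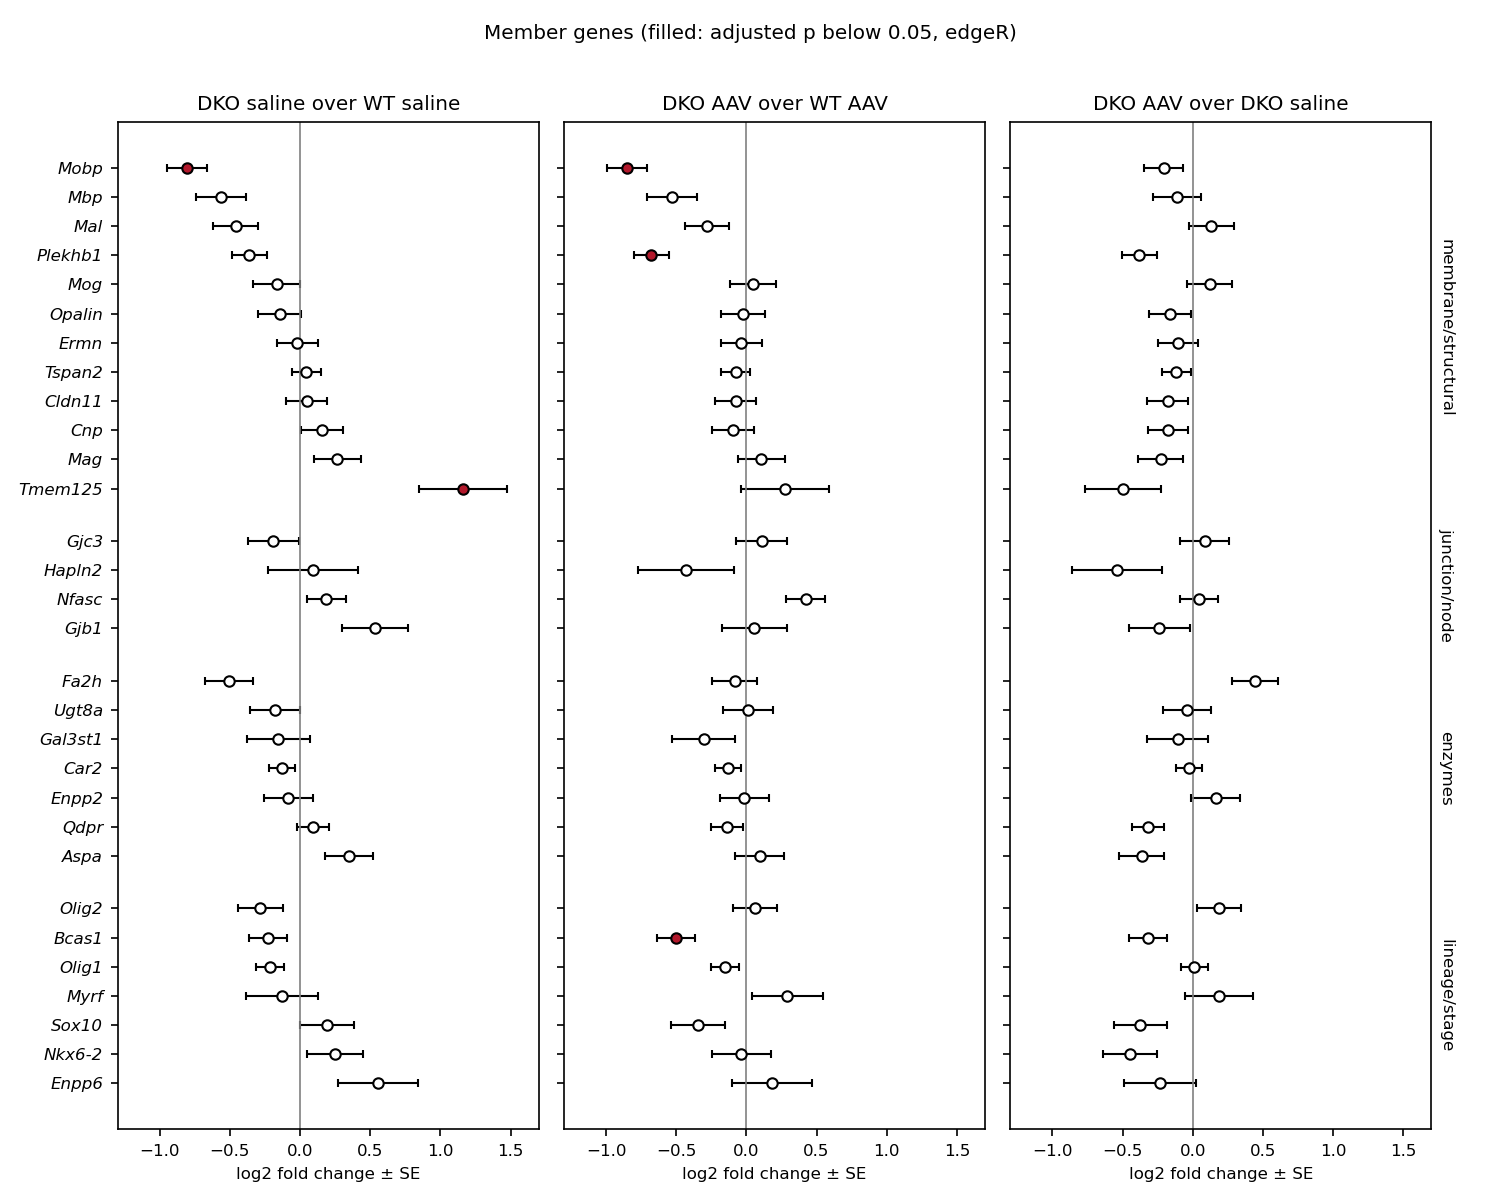
Log2 fold change with its SE (horizontal axes) of the 30 genes, grouped by role and ordered within roles by the first panel, in 3 comparisons, with filled points for adjusted p under 0.05 by edgeR. Mobp is filled in both DKO over WT panels (-0.81 and -0.85), and no point is filled for DKO AAV over DKO saline.

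In all, 6.9% of the 11123 genes tested were called between DKO saline and WT saline mice. Of the 30 genes, 1 was called higher (Tmem125) and 1 lower (Mobp) there, where 3.62% of all genes were called higher and 3.27% lower. A count of 1 in each direction is close to these shares. The median log2 fold change of the 30 was -0.11, against 0.00 over all genes tested. Without replicate 2 of DKO saline, 0 were called higher and 5 lower (Mobp, Plekhb1, Mal, Mbp and Fa2h), where 3.66% of 11208 genes were called, 1.9% higher and 1.76% lower, and the median of the 30 was -0.26. Of the 30 log2 values, 17 were negative with that mouse and 26 without it. In DKO AAV against WT AAV mice, 0 were called higher and 3 lower (Mobp, Plekhb1 and Bcas1), where 5.92% of all genes were called, 1.96% higher and 3.96% lower. The median was -0.06 over the 30 genes and 0.01 over all genes. The median of the 30 ranged from -0.16 to 0.06 over the alternatives. It was -0.16 with RIN, the RNA integrity number, as a term, and -0.13 without DKO AAV replicate 4, with 26 and 25 of the 30 values negative, against 19 without these changes. It was positive with library totals as scaling and with the 6-gene score as a term. RIN was 8.3 to 9.7 in DKO AAV mice and 9.0 to 9.9 in the other groups, and its part in these values was not tested beyond this term. In the 5 alternatives named above Nfasc was called higher. In DKO AAV against WT saline mice, 0 were higher and 4 lower (Mobp, Plekhb1, Bcas1 and Mbp), where 5.25% of all genes were called, 1.43% higher and 3.82% lower. The median was -0.13 over the 30 genes and 0.01 over all genes, and the median of the 30 ranged from -0.23, with RIN as a term, to 0.02 over the alternatives.

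For DKO AAV against DKO saline, 0 of the 30 genes were called, where 3.02% of all genes were called, 0.818% higher and 2.2% lower. At an unadjusted p under 0.05, 1 was higher (Fa2h) and 5 lower (Plekhb1, Qdpr, Bcas1, Nkx6-2 and Aspa), 6 of the 30, a share close to the 19.1% of all genes tested. DESeq2 called 0, and the median of the 30 was -0.14. Without replicate 2 of DKO saline 0 were called as well, and the median turned to 0.08. There 0.482% of all genes were called, 0.0446% higher and 0.437% lower. For WT AAV against WT saline, 0 were called by edgeR and by DESeq2, where 0% of all genes were called. At an unadjusted p under 0.05 there were 0 of the 30, a share close to the 2.28% of all genes tested. For the difference of vector effects between genotypes, 0 of the 30 were called by either tool, where 0.018% of all genes were called by edgeR. Comparisons with the same DKO saline or WT saline mice share those mice's errors.

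The summed level of the 30 genes is a scaled share of each library's tags and not an amount of RNA per hemibrain. It includes Qdpr, made in other brain cells too, and Enpp2, also abundant in the choroid plexus. The sum was 6510, 7373 and 9237 CPM (lowest, median, highest) in DKO AAV mice and 6945, 7885 and 13028 CPM in DKO saline mice. In WT AAV mice it was 8128, 10168 and 12281 CPM, and in WT saline mice 8772, 11265 and 13634 CPM. The 6 DKO saline mice other than replicate 2 lay below every WT saline mouse, by a small gap (8761 against 8772 CPM). The DKO AAV median was 65.5% of the WT saline median, the DKO saline median 70.0% and the WT AAV median 90.3%. Mbp made up 36.8% to 50.9% of these counts in DKO AAV mice and 38.5% to 54.3% in WT saline mice. With Mbp left out the DKO AAV median was 77.5%, the DKO saline median 80.2% and the WT AAV median 96.5% of the WT saline median. That remainder averaged 5567 CPM in WT saline mice and still held Mobp (1025 CPM), Bcas1 (730 CPM) and Plekhb1 (717 CPM), called lower above. Neither set of shares therefore stands for a fall of all 30 genes. In batch 4 the sums were 6611 to 9237 CPM in 3 DKO AAV mice, 6945 to 8761 CPM in 4 DKO saline mice, 8982 and 9463 CPM in the WT AAV mice and 8772 and 8965 CPM in the WT saline mice.

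A score without Mobp, the mean log2 difference from WT saline over Mbp, Mog, Mag, Cnp, Cldn11 and Mal, averaged -0.23 ± 0.19 in DKO AAV mice, -0.30 ± 0.55 in DKO saline mice and -0.05 ± 0.20 in WT AAV mice (SD, n = 7 each), with an SD of 0.16 in WT saline mice, whose mean is 0 by construction. Without replicate 2 the DKO saline mean was -0.47 ± 0.33 (SD, n = 6). Mobp minus this score averaged -0.78 ± 0.39 in DKO AAV mice, -0.50 ± 0.56 in DKO saline mice and -0.11 ± 0.21 in WT AAV mice, with an SD of 0.23 in WT saline mice. Without replicate 2 the DKO saline mean was -0.42 ± 0.57 (n = 6). DKO AAV mice ranged from -1.11 to -0.17. In DKO saline mice it was -1.50, -0.97 and -0.41 in the mice of batches 1, 2 and 3, and -0.53, -0.09, 0.02 and -0.04 in the 4 mice of batch 4, so in 3 mice of that batch Mobp was low to the same extent as the other 6 genes. With the 6-gene score as a term in the fit, Mobp stayed called, at -0.72 ± 0.14 for DKO saline over WT saline (adjusted p = 0.000484) and -0.79 ± 0.13 for DKO AAV over WT AAV (adjusted p = 0.000219). Plekhb1 and Bcas1 in DKO AAV over WT AAV were -0.63 ± 0.12 (adjusted p = 0.00082) and -0.43 ± 0.13 (adjusted p = 0.0303) in that fit.

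**Figure D3:**
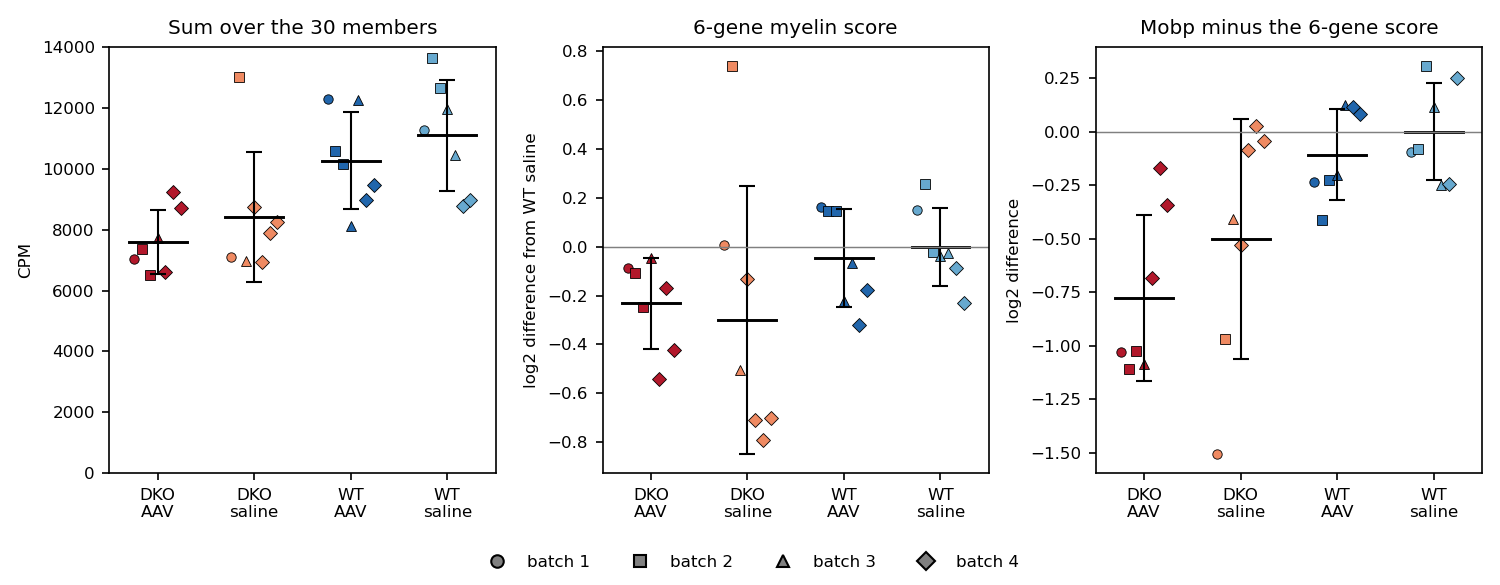
Summed level of the 30 genes in CPM (left), the mean log2 difference from WT saline over 6 myelin genes without Mobp (middle) and Mobp minus that score (right), 1 point per mouse, with mean and SD per group (n = 7) and marker shape for the batch. DKO AAV sums lay at 6510 to 9237 CPM and WT saline sums at 8772 to 13634 CPM, and 3 of the 4 DKO saline mice of batch 4 lay near 0 in the right panel.

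**Figure D4:**
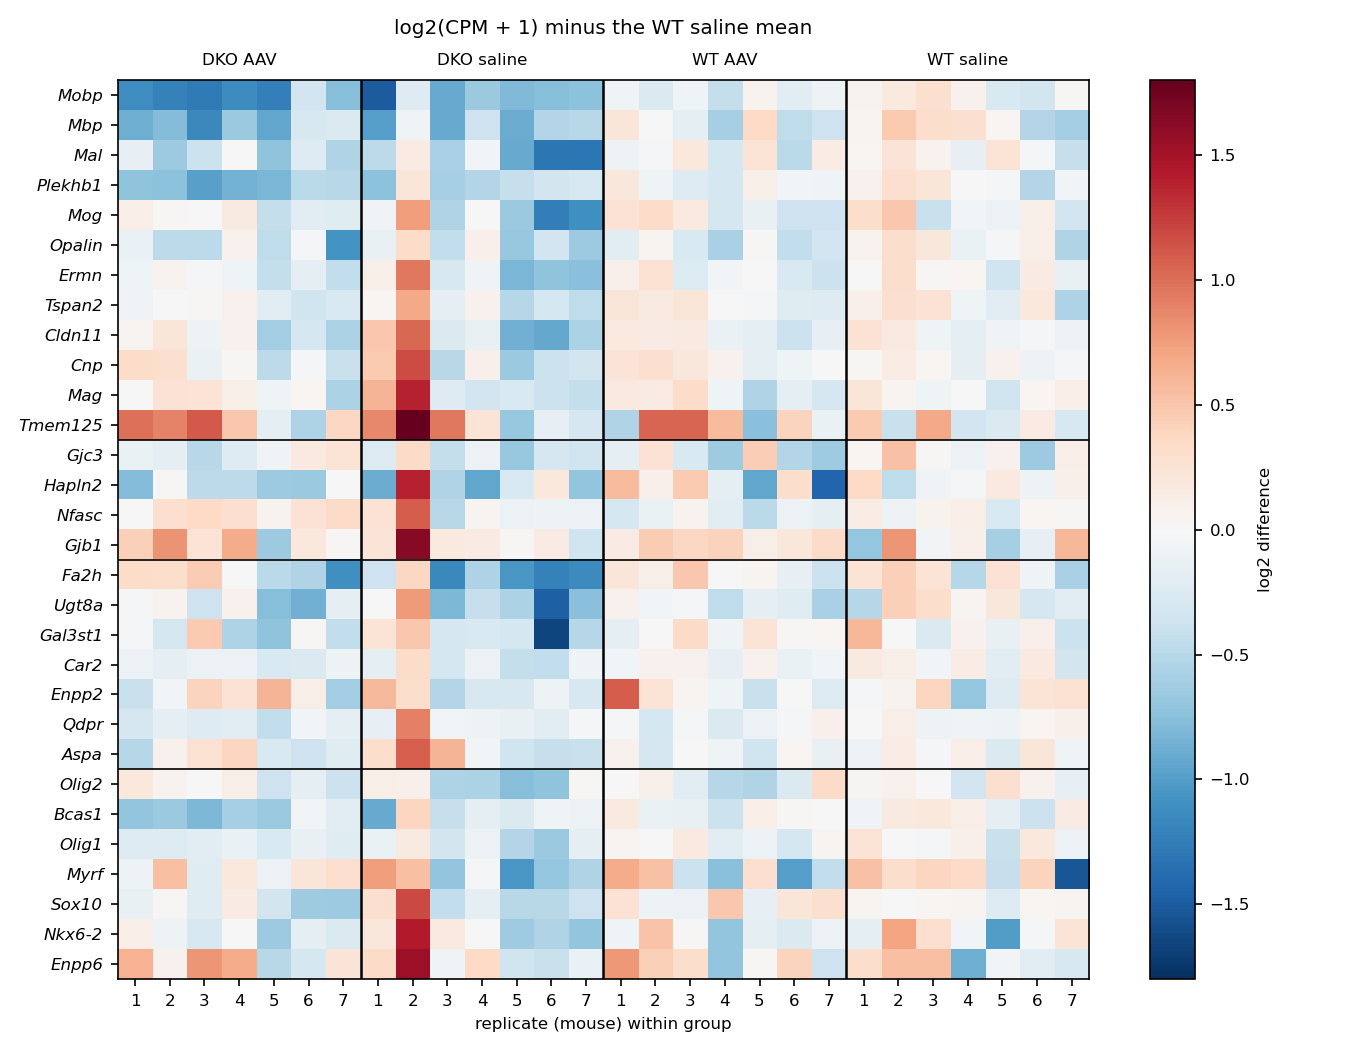
Log2(CPM + 1) minus the WT saline mean for the 30 genes (rows, by role) in the 28 mice (columns, by group and replicate), blue for lower and red for higher. Mobp is below the WT saline mean in all 14 DKO mice, and DKO saline replicate 2 is the reddest column, highest of its group for 27 genes.

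Other lists place these genes beside related ones, and were chosen from general knowledge with earlier results of these data known. Of 40 other mature oligodendrocyte genes tested, 2 were higher and 2 lower in the DKO saline group relative to WT saline, with a median of 0.08. The summed level of the 45 listed genes with counts was 4965, 5263 and 5629 CPM (lowest, median, highest) in DKO AAV mice, 4919, 5689 and 8260 CPM in DKO saline mice, 5365 to 6119 CPM with a median of 5825 CPM in WT AAV mice, and 5390, 6015 and 6234 CPM in WT saline mice. The groups overlapped in this sum. Kif5a, a kinesin gene that neurons express as well, fell by 0.74 on the log2 scale, and Lpar1, which codes for a lysophosphatidic acid receptor, fell by 0.51. Apod, which codes for apolipoprotein D, rose by 0.51. Without replicate 2, 0 of the 40 were higher and 2 lower (Kif5a and Lpar1), with a median of -0.05. In DKO AAV against WT AAV mice, 0 of the 40 were higher and 3 lower (Kif5a, Rnf220 and Lpar1). Of 18 oligodendrocyte precursor genes tested, 0 were called in DKO saline against WT saline by edgeR, with a median of 0.06. At an unadjusted p under 0.05, 1 was higher and 3 lower, 4 of the 18, a share close to the 20.9% of all genes tested. Of the same genes 1, Lhfpl3, was higher in DKO AAV against WT AAV (log2 1.03 ± 0.23, adjusted p = 0.00561). Of 3 tested Schwann cell genes, 0 were called in DKO saline against WT saline.

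Among 18 tested genes of nodes and paranodes, which code for axonal and matrix partners of the junction proteins, 0 were higher and 4 lower in DKO saline against WT saline mice, with a median of -0.15. Ank3, which codes for the node scaffold ankyrin G, fell by 0.36 (adjusted p = 0.0095), and Cntnap1, the paranodal partner of contactin, fell by 0.41 (adjusted p = 0.0299). Without replicate 2, 0 were higher and 2 lower (Ank3 and Bcan), so the call of Cntnap1 ended. Excitatory neuron genes of replicate 2 were low, as given above, and the part of neuron content in these values was not tested. In DKO AAV against DKO saline mice, 2 of the 18 were higher (Kcna2 and Scn8a) and 0 lower, and without replicate 2 of DKO saline 0 were called.

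Microglia and astrocytes share many genes of the reactive oligodendrocyte state. Of 13 such genes tested, 6 were higher and 0 lower for DKO saline against WT saline, with a median of 0.51. Serpina3n, a serine protease inhibitor gene, averaged 20.7 CPM in DKO AAV mice, 65.8 CPM in DKO saline mice, 3.00 CPM in WT AAV mice and 2.31 CPM in WT saline mice. For DKO saline over WT saline it rose by 5.07 ± 0.34 and C4b, a complement gene, by 3.17 ± 0.20 on the log2 scale. In DKO AAV against DKO saline mice, 0 were higher and 7 lower, with a median of -0.50, and Serpina3n gave -1.80 ± 0.22 and C4b -1.25 ± 0.15. Without replicate 2, 7 were higher in DKO saline against WT saline mice, and 4 were lower in DKO AAV against DKO saline mice (C4b, Serpina3n, Cd63 and Ctsb). In DKO AAV against WT AAV mice, 2 were higher, Serpina3n (2.93 ± 0.38) and C4b (1.54 ± 0.21). Of 14 microglia genes tested, 9 were higher and 0 lower in DKO saline against WT saline mice, with a median of 0.76, and 0 were higher and 7 lower in DKO AAV against DKO saline mice, with a median of -0.40. Without replicate 2 these counts were 7 higher and 5 lower. The summed level of the microglia genes was 869 to 1147 CPM in DKO AAV mice, 1163 to 2206 CPM in DKO saline mice, 707 to 903 CPM in WT AAV mice and 652 to 993 CPM in WT saline mice. Of 14 astrocyte genes tested, 4 were higher and 0 lower in DKO saline against WT saline mice, and 0 were higher and 3 lower in DKO AAV against DKO saline mice, with 2 and 1 without replicate 2. Their summed level was 11653 to 15113 CPM in DKO AAV mice, 13876 to 16600.2 CPM in DKO saline mice, 13315 to 16017 CPM in WT AAV mice and 13033 to 15633 CPM in WT saline mice. No listed gene of either type was at 0 in all mice. The part of these cells in the reactive gene values was not tested. For Mobp the DKO over WT value was -0.85 with the vector and -0.81 with saline, and the difference of vector effects, given above, was smaller than its SE of 0.20.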

How the data were processed

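Polyadenylated RNA of 28 hemibrains was read as QuantSeq 3' tags with molecular identifiers, per the labels' protocols. The submitters' processing notes name STAR, the build GRCm38.p6, FastQC 0.11.5, MultiQC 1.0, edgeR 3.40.2 and R 4.2. The sources used here give neither the counting program nor its strand setting, and antisense overlaps cannot be resolved. The deposited counts are tags per gene that the authors rounded to at most 2 significant digits, an error of up to 4.76% for values of 100 or more. A second deposited sheet holds a normalized CPM signal, which the authors had scaled by library total and by a normalization factor, a ratio per library that they also deposited; it was used only in alternatives. From the counts, edgeR 4.0.16 (R 4.3.3) kept 11123 genes by filterByExpr (minimum count 10, minimum total 15) and fitted group, sex and batch over all 28 mice with TMM scaling; contrasts were tested with glmQLFTest, adjusted over all genes by Benjamini-Hochberg and called under 0.05. The SE is the log2 fold change divided by the square root of F. Alternatives used DESeq2 1.42.0, limma 3.58.1 (log2 of CPM plus 1), other terms, and left-out libraries and batches. DKO AAV against WT AAV, the fit with RNA concentration and the counts of other lists without DKO saline replicate 2 were added after the data had been seen. Replicates are separate mice, numbered in the order of the samples, and the numbers pair nothing. All 30 genes are named; of other lists, up to 3 genes with the smallest p in a comparison, of which 1 is not reported here. The members and lists were chosen with earlier results of these data known. Promoters are RefSeq's for GRCm38.p6, and gene coordinates are those of the deposited table. The scripts were tested on simulated data. Totals of 1164637 to 2389815 counts limit the precision for genes of a few CPM.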

Additional observations from a re-analysis of the deposited data

Results flagged for a closer look

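In a group of 7 mice, a highest or lowest mouse was singled out when its gap to the next mouse, divided by the group's range, exceeded Dixon's critical value. Of 124 group values tested, 17 were singled out, where chance gives about 1 in 20. Of these, 14 were the highest value of DKO saline, in replicate 2 each time. They were, in CPM, 173 for Mag, 189 for Ermn, 134 for Tspan2, 825 for Plekhb1 and 27.1 for Tmem125 among the membrane proteins. Among the junction and node genes they were 39.3 for Gjb1, 169 for Nfasc and 24.4 for Hapln2. Among the enzymes they were 29.9 for Fa2h, 472 for Car2 and 1965 for Qdpr. Among the lineage genes they were 66.8 for Sox10, 94.3 for Nkx6-2 and 15.7 for Enpp6. The 3 others were Gal3st1 in WT saline replicate 1 (15.8 CPM, next 10.8), Enpp2 in WT AAV replicate 1 (593 CPM, next 329) and Sox10 in WT saline replicate 5, the lowest of its group (24.3 CPM, next 28.9). The genes are not independent of each other, so the 14 values describe 1 mouse.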

How the results depend on the processing

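Mobp was called lower under all 28 alternatives in each DKO against WT comparison, with log2 values of -1.07 to -0.69 for DKO saline over WT saline, and -1.24 to -0.82 for DKO AAV over WT saline. Plekhb1 was called under all 28 in both DKO AAV against WT comparisons. Bcas1 lost its call in 12 of 28 alternatives against WT AAV and in 3 of 28 against WT saline, Mbp in 10 of 27 against WT saline, and Tmem125 in 9 of 27. No direction of a called gene reversed. With library totals as scaling the median of all genes was 0.12 (log2) in DKO saline over WT saline and in DKO AAV over WT AAV, and 0.15 in DKO AAV over WT saline, a shift of 0.11, 0.11 and 0.14 from TMM scaling. The median of the 30 genes was then 0.01, 0.06 and 0.01, below that of all genes in each.

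For DKO saline against WT saline, 2 of the 30 genes were called, and 1 with DESeq2, with only the compared groups, with a term for RNA concentration, and when batch 2 or batch 3 was left out. The count was 5 with no low-count filter, 6 without the 3 libraries of low striatal or cerebellar level and 7 without batch 4, where replicate 2 is 1 of the 3 DKO saline mice left and Mag, Nkx6-2, Aspa, Gjb1 and Tmem125 were higher. Leaving out single mice gave 1 to 5. Calls over all genes moved too, from 403 higher and 364 lower of 11123 in the reported fit. With no filter they were 499 and 370 of 24919, and without the 3 libraries 322 and 368 of 11148. Leaving out batch 4 gave 587 and 586 of 11579, and leaving out batch 2 gave 133 and 110 of 11123. DESeq2 gave 362 and 352, RNA concentration 202 and 136, and only the compared groups 194 and 155 of 10562. For DKO AAV against DKO saline, with 0 called, the count was 4 with no low-count filter, 2 with the 6-gene score as a term (for the other 24 genes), and 1 with RIN, with RNA concentration, without batch 1 and without batch 4; single mice gave 0 to 2, the 2 without DKO saline replicate 1 being Bcas1 and Plekhb1. For DKO AAV against DKO saline, all genes gave 91 higher and 245 lower in the reported fit, and 301 and 409 of 24919 with no filter. With the 6-gene score they gave 127 and 266 of 11117, and leaving out batch 4 gave 12 and 82 of 11579. For DKO AAV against WT saline, with 4 called, the count was 2 with RNA concentration and without batch 2 or batch 3. Without single mice it was 3 to 4. All genes gave 159 higher and 425 lower there in the reported fit, and 106 and 284 with RNA concentration. Leaving out batch 2 gave 53 and 136, and leaving out batch 3 gave 58 and 168 of 11252. For DKO AAV against WT AAV, with 3 called, the count was 5 with no low-count filter, with only the compared groups and without the 3 libraries. Without single mice it was 2 to 4. All genes gave 218 higher and 441 lower there in the reported fit, and 368 and 404 of 24919 with no filter. With only the compared groups they gave 349 and 552 of 10521, and without the 3 libraries 337 and 528 of 11148. The count of the 30 genes was 0 in all alternatives for WT AAV against WT saline and for the difference of vector effects. With no filter, all genes gave 7 higher and 3 lower in the first of these, and 77 and 79 in the second. The DKO AAV share of the WT saline summed level was 77.5% without Mbp, against 65.5% with it. Why these counts moved was not tested. No paired analysis was possible because replicate numbers only name the mice.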
